A study of Mus musculus with 24 samples.

Results

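The miR-106b~25 cluster is a group of 3 miRNA genes, miR-106b, miR-93 and miR-25, that lie together inside the gene Mcm7. The members were taken by name, as all miRNAs of this locus, and they are 3 of the 510 miRNAs in the deposited table, where they are listed as mir-106b, mir-93 and mir-25. Small RNA was sequenced from MMTV-PyMT mice, FVB females heterozygous for the polyoma middle T oncogene under the MMTV promoter, which drives it in mammary epithelium, and from normal mammary glands of FVB females without the transgene. Mammary tissue was taken at week 6 (hyperplasia), week 8 (adenoma or mammary intraepithelial neoplasia), week 10 (early carcinoma) and week 12 (late carcinoma), all called tumor here. Each genotype and week had 3 libraries from separate mice, 24 in all. The authors' pathology notes that tissue of the hyperplasia and adenoma stages still holds normal gland cells. Levels are in CPM, the count of a miRNA scaled to its library after TMM normalization, and the values measure whole tissue, in which fewer cells of a type and less RNA per cell cannot be told apart.

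A miRNA finds its target mRNAs mainly through its seed, the bases near its 5′ end, and lowers their translation or stability. miRNAs that lie in a cluster can be processed from a shared primary transcript, and those in an intron are often transcribed together with their host gene. Mcm7 encodes a subunit of the helicase that opens DNA at replication origins, and it is a target of the E2F factors that drive entry into S phase. The miR-106b~25 cluster is a paralog of the miR-17~92 cluster, an oncogenic cluster induced by Myc, and of the miR-106a cluster on the X chromosome. miR-106b and miR-93 are known to target the cell cycle inhibitor Cdkn1a, and miR-25 to target the apoptosis inducer Bcl2l11.

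The mature sequences are shown because the members fall into 2 seed families and because each has a near twin in the miR-17~92 cluster, with which it is compared below. They are those of RefSeq (GRCm38.p6), which held all 3 members, written 5′ to 3′ with the seed (bases 2 to 8) in capitals. The first 4 share the seed of miR-17 and the last 4 the seed of miR-25.
miR-106b-5p: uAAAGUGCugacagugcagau
miR-93-5p: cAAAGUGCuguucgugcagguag
miR-17-5p: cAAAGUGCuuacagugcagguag
miR-20a-5p: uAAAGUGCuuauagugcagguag
miR-25-3p: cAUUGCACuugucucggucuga
miR-92a-3p: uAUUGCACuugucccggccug
miR-92b-3p: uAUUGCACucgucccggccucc
miR-32-5p: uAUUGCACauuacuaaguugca
Aligned from the 5′ end, miR-106b and miR-17 were identical at 18 of 21 positions, miR-93 and miR-20a at 19 of 23, and miR-25 and miR-92a at 18 of 21. Within the first 17 bases, the shortest read length that the authors counted, these pairs differed at 2, 4 and 2 positions, so that short reads have few bases to tell them apart. Between members, miR-93 and miR-106b were identical at 16 of 21 positions, and miR-25 and miR-106b at 5 of 21. The deposited rows name a miRNA without its arm, so that counts of the 5p and 3p products cannot be separated.

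In the mm9 annotation, Mcm7 (ENSMUSG00000029730.10) lies on the minus strand of chromosome 5 from 138605811 to 138613650. All 3 hairpins lie on the same strand within intron 13 of its transcript of 15 exons, at chr5:138606390-138607137, an intron of 748 bases. In the direction of transcription, the hairpin of miR-106b comes first (chr5:138606965-138607046), then that of miR-93 (chr5:138606751-138606838) and that of miR-25 (chr5:138606549-138606632). The gaps between them are 126 and 118 bases, and the cluster spans 498 bases. The annotation also lists 1 transcript with a retained intron that overlaps the hairpins of miR-93 and miR-25. The mature sequences of miR-106b and miR-93 come from the 5′ arm of the hairpin and that of miR-25 from the 3′ arm, as the map of the intron shows.

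**Figure D1:**
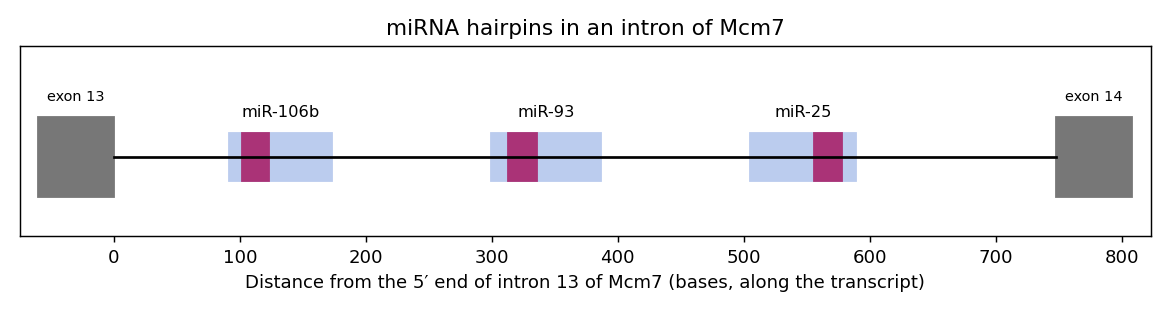
Map of intron 13 of Mcm7, with the distance from its 5′ end in bases along the transcript. Pale boxes are the 3 hairpins, dark parts the mature sequences given in the text, and grey boxes stand for the flanking exons, which are not drawn to their full length; the 3 hairpins start 91, 299 and 505 bases into the intron.

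Total counts ranged from 1626022 to 3931375 in the normal libraries and from 1032241 to 2213972 in the tumor libraries, where 3 counts are worth 0.763 to 2.91 CPM before TMM normalization. The members lay far above this floor, with 311 to 1361 counts per library for miR-106b, 787 to 4402 for miR-93 and 3203 to 13627 for miR-25. By mean CPM over all libraries, miR-25 was in rank 43 of the 510 listed miRNAs, miR-93 in rank 71 and miR-106b in rank 103. Together the 3 members took 0.299% to 0.561% of a normal library and 0.417% to 0.613% of a tumor library.

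miR-25 was the most counted member in all 24 libraries and miR-106b the least counted. In the normal glands its count was 11.4 ± 1.17 times that of miR-106b and 4.59 ± 1.11 times that of miR-93 (SD, n = 12). In tumors the same ratios were 10.9 ± 0.84 and 4.06 ± 0.36 (SD, n = 12). Different miRNAs are captured with different efficiency in small RNA libraries, so that this order is of counts and not of molecules.

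For each member, all 4 tumor group means lay above all 4 normal group means. miR-106b at week 6 had 195, 286 and 353 CPM in normal replicates 1, 2 and 3 and 326, 373 and 352 CPM in the tumors. The 3 normal values of week 8 were 213, 330 and 321 CPM for miR-106b, against 366, 366 and 413 CPM in tumors. Only at week 6 did its tumor and normal libraries overlap, since normal replicate 3 reached the level of the tumors. At week 10 miR-106b had 259, 270 and 339 CPM in normal glands and 440, 405 and 359 CPM in tumors. At week 12 it had 232, 224 and 235 CPM in normal glands and 301, 362.8 and 385 CPM in tumors, so that all 3 tumors were above all 3 normal glands at weeks 8, 10 and 12. This was also seen for 32.1%, 36.3% and 33.3% of all tested miRNAs at those weeks.

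miR-93, which shares its seed with miR-106b, had the widest range in the normal glands. Its 3 normal libraries of week 6 were at 390, 744 and 1141 CPM and its tumors at 961, 1026 and 1014 CPM. Those of week 8 were at 493, 911 and 1064 CPM, with tumors at 892, 925 and 1206 CPM. Tumor and normal libraries overlapped at both weeks, and at week 6 the highest value of all belonged to a normal gland. At week 10 miR-93 was at 643, 692 and 879 CPM in normal glands and 1136, 1022 and 925 CPM in tumors. At week 12 it was at 485, 613 and 477 CPM in normal glands and 798, 1000 and 1008 CPM in tumors. All tumors were above all normal glands at weeks 10 and 12, as for 36.3% and 33.3% of all tested miRNAs.

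miR-25, with its other seed, was the only member with all tumors above all normal glands at each of the 4 weeks. Taken singly, weeks 6, 8, 10 and 12 showed this for 34.2%, 32.1%, 36.3% and 33.3% of the tested miRNAs. The share of miRNAs with it at all 4 weeks was not computed. The normal values of miR-25 at week 6 were 2346, 3067 and 3283 CPM and its tumor values 3761, 4015 and 3774 CPM. At week 8 the nearest values of the 2 genotypes were close, with 2729, 3735 and 3668 CPM in normal glands and 3886, 3765 and 4138 CPM in tumors. The gap was wider at week 10, where miR-25 had 2837, 3235 and 3133 CPM in normal glands and 4027, 4589 and 3942 CPM in tumors. At week 12 it had 2853, 2549 and 3003 CPM in normal glands and 3394, 4555 and 4240 CPM in tumors. Paired by replicate number within a week, the tumor library was higher in 11 of 12 pairs for miR-106b, 11 of 12 for miR-93 and 12 of 12 for miR-25. These pairs follow the numbers alone, which were not taken as pairing at week 12.

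**Figure D2:**
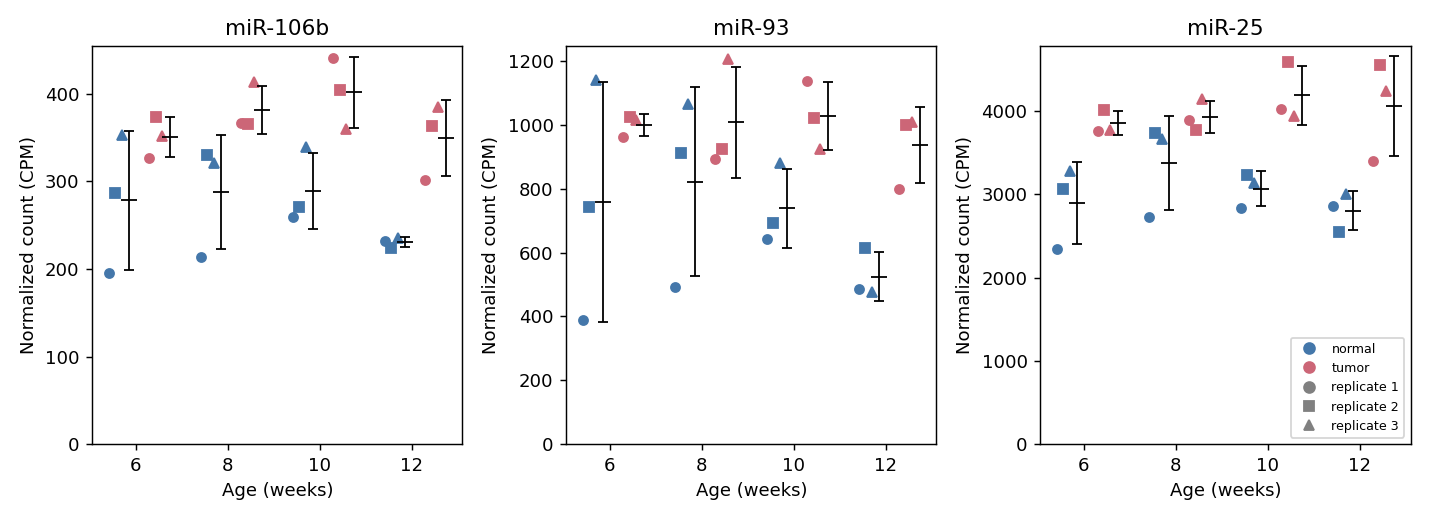
Normalized counts (CPM, linear axes from 0) of miR-106b, miR-93 and miR-25 by age in weeks, for normal glands (blue) and tumors (red), with a symbol for each replicate number and black bars for the mean ± SD of 3 libraries. At week 12 all tumors lie above all normal glands for each member, while the normal glands of weeks 6 and 8 spread from 390 to 1141 CPM for miR-93.

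The tumor-normal difference was tested at each week with edgeR's quasi-likelihood test on the 237 miRNAs kept by its filter, with Benjamini-Hochberg adjustment over all of them and a threshold of 0.05. At week 6, 0 of the 3 members were differentially expressed, where 58.6% of all tested miRNAs were, and 29.1% of all tested miRNAs were called higher in tumor. At week 8 again 0 of 3 passed, against 32.5% of all (21.5% of all higher in tumor). At week 10 miR-25 and miR-93 rose, 2 of 3 against 58.6% of all (32.5% of all higher in tumor). At week 12 all 3 rose, against 50.6% of all (29.1% of all higher in tumor). The background is high at every week, and the count of members is read against it. At an unadjusted p under 0.05, 64.6% of all miRNAs passed at week 6 and 48.5% at week 8, and of the members miR-25 alone did so, at week 6.

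The log2 fold changes of tumor over normal were small for this tissue and lay between 0.22 and 0.83 for all members and weeks. At week 6 they were 0.33 for miR-106b (standard error 0.26, adjusted p = 0.279 from edgeR), 0.40 for miR-93 (0.35, adjusted p = 0.334) and 0.41 for miR-25 (0.16, adjusted p = 0.0625). At week 8 they were 0.41 (0.27, adjusted p = 0.247), 0.29 (0.32, adjusted p = 0.458) and 0.22 (0.19, adjusted p = 0.379) in the same order. The standard error, here derived from the fold change and edgeR's F statistic, was larger than the difference for miR-93 at week 8. It was smaller in the other cases, and no difference passed the threshold. Each replicate number of a genotype was also left out at every week, which takes 1 library from each weekly test, with filter and scaling redone. The values of week 6 then ranged from 0.060 to 0.54 for miR-106b (lowest without tumor replicate 2). They ranged from 0.084 to 0.82 for miR-93 (lowest without normal replicate 1) and from 0.15 to 0.51 for miR-25 (lowest without tumor replicate 2). Those of week 8 ranged from 0.25 to 0.44, from 0.043 to 0.48 (both lowest without normal replicate 1) and from 0.091 to 0.23 (lowest without tumor replicate 3).

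At week 10 the log2 fold change was 0.48 for miR-93 (standard error 0.17, adjusted p = 0.0441 from edgeR) and 0.45 for miR-25 (0.13, adjusted p = 0.0208). That of miR-106b was as large, 0.47, and missed the threshold (0.18, adjusted p = 0.0584). With the replicate number as a block, which the correlation of same-numbered libraries allows at this week, miR-93 was not called (0.49, adjusted p = 0.0515), and miR-25 was (adjusted p = 0.0296). The call of miR-25 was lost without tumor replicate 1, 2 or 3 or without normal replicate 1, with adjusted p of 0.0517, 0.164, 0.0690 and 0.0576 in edgeR. That of miR-93 was lost without any library but normal replicate 3, with adjusted p from 0.0816 to 0.143.

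Week 12 gave the largest difference, 0.83 for miR-93 (standard error 0.20, adjusted p = 0.0128 from edgeR), from 525 ± 76.6 CPM in normal glands to 936 ± 119 CPM in tumors (SD, n = 3). miR-106b rose by 0.60 on the log2 scale (0.20, adjusted p = 0.0378 from edgeR), from 230.4 ± 5.71 to 349.7 ± 43.4 CPM. miR-25 rose by 0.54 (0.18, adjusted p = 0.0437 from edgeR), from 2802 ± 231 to 4063 ± 601 CPM. The calls of miR-106b and miR-25 were lost when any 1 of the 6 libraries was left out, with adjusted p from 0.0663 to 0.202 and from 0.0539 to 0.282. That of miR-93 was lost without tumor replicate 2 or 3 or normal replicate 1 or 3, with adjusted p of 0.107, 0.0773, 0.0518 and 0.0619 in edgeR, and its log2 fold change ranged from 0.62 to 0.87 over the 6 fits.

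Set among all tested miRNAs, the members stood above the middle but not at the top. Their log2 fold changes exceeded those of 55.3% (miR-25 at week 8) to 70.5% (miR-93 at week 12) of the 237 miRNAs. The median log2 fold change of all tested miRNAs was -0.12, -0.065, -0.13 and -0.17 at weeks 6, 8, 10 and 12, and those of the 3 members were 0.40, 0.29, 0.47 and 0.60. Other scalings of the libraries moved the median of all miRNAs by up to -0.27, with upper quartile factors at week 6, where 46 miRNAs were then called higher and 90 lower, against 69 and 70 with TMM. At week 8 the same factors gave 36 higher and 33 lower, against 51 and 26. Measured from the median of all miRNAs, the members were at 0.45 to 0.46 (miR-106b), 0.51 to 0.53 (miR-93) and 0.53 to 0.54 (miR-25) at week 6 across the 4 scalings. At week 12 these values were 0.74 to 0.78, 0.95 to 1.02 and 0.68 to 0.71. A scaling shifts all miRNAs of a library alike, so that these values had little room to differ and do not test the stability of the members. No member had a fold change below 0 at any week under any of these scalings.

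**Figure D3:**
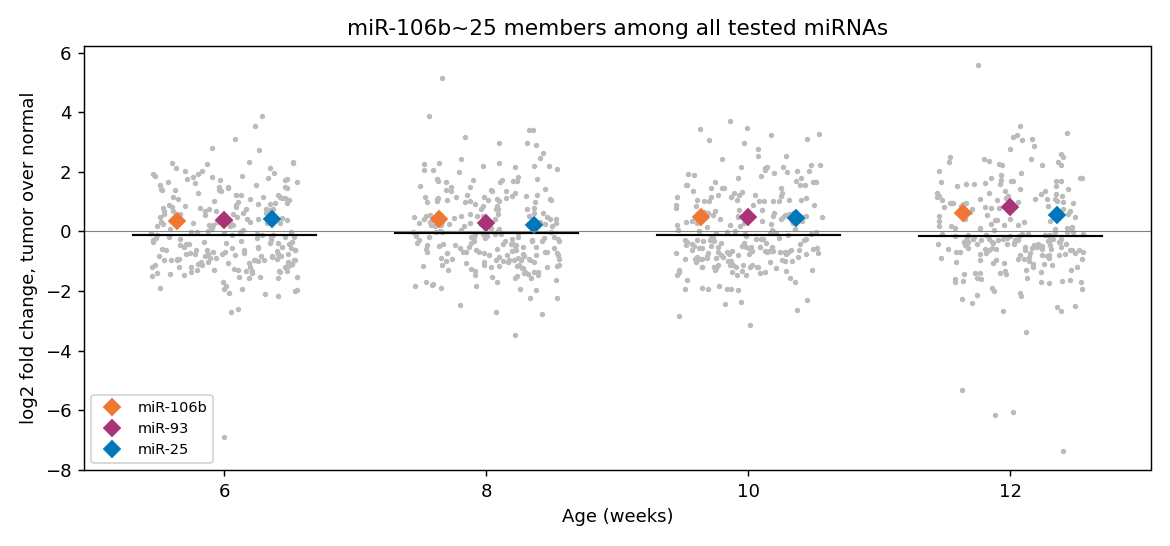
Log2 fold change of tumor over normal at each week for the 237 tested miRNAs (grey points, spread sideways for display), with the median of all as a black line and the 3 members as coloured diamonds. All 12 diamonds lie above 0 and above the median, between 0.22 and 0.83, and well inside the range of the other miRNAs.

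Whether the difference varied between the weeks was tested with the genotype by week interaction in a fit of all 24 libraries. The adjusted p was 0.971 for miR-106b, 0.971 for miR-93 and 0.948 for miR-25 (edgeR). No miRNA passed this test (0% of 237, and 3.8% at an unadjusted p under 0.05), so that the calls at weeks 10 and 12 are not shown to differ from the missing calls at weeks 6 and 8.

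Levels within a genotype were compared between week 6 and week 12 in the same fit. In tumors the log2 change was -0.0038 for miR-106b, -0.097 for miR-93 and 0.077 for miR-25, with adjusted p of 0.990, 0.847 and 0.771 in edgeR, and 0 of 3 passed where 7.59% of all miRNAs did (25.7% at an unadjusted p under 0.05, none of the members). In normal glands it was -0.27, -0.53 and -0.049, with adjusted p of 0.389, 0.222 and 0.876, and 0 of 3 passed where 21.1% of all did (31.6% unadjusted, again none of the members). These normal values depended on single replicates. Without replicate 3 they were 0.077, 0.096 and 0.15, and without replicate 2 they were 0.018, -0.42 and 0.31, in the same order. Ordered by group mean, miR-106b went from 230.4 CPM in normal glands of week 12 to 401 CPM in tumors of week 10, miR-93 from 525 CPM to 1028 CPM in the same groups, and miR-25 from 2802 CPM to 4186 CPM, again in these groups. Most neighbours in these orders differed by less than the larger of their SDs. The exceptions were the step from the highest normal mean (week 10) to the lowest tumor mean (week 12) for miR-106b, its step from tumors of week 6 to those of week 8, and the step from normal glands of week 12 to those of week 10 for miR-93.

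With the weeks pooled, the members covered a wider range in normal glands than in tumors, but within single weeks this did not hold for every member. Over the 12 libraries of a genotype, the highest CPM of miR-93 was 2.93 times the lowest in normal glands and 1.51 times in tumors. For miR-106b these figures were 1.81 and 1.46, and for miR-25 they were 1.59 and 1.35. Within week 12 the SD was larger in tumors for all 3 members, as given above, and at week 10 it was so for miR-25, with 207 CPM in normal glands and 352 CPM in tumors. The SD in CPM can grow with the mean, which was higher in tumors. As a percentage of the mean, the SD of miR-93 at week 12 was 14.6% in normal glands and 12.7% in tumors. That of miR-106b was 2.48% and 12.4% and that of miR-25 8.24% and 14.8% at week 12, and that of miR-25 was 6.74% and 8.40% at week 10. At weeks 6, 8 and 10 the highest miR-93 value among the normal glands was that of replicate 3 and the lowest that of replicate 1. Without normal replicate 3, miR-93 and miR-25 passed the threshold at week 6 (log2 fold changes of 0.82 and 0.51, adjusted p = 0.0263 and 0.0298 from edgeR), and miR-106b passed it at week 10 (0.54, adjusted p = 0.0329). In both genotypes replicate 1 was sequenced in lane 1 and replicate 3 in lane 2, with replicate 2 in lane 1 at weeks 6 and 8 and in lane 2 at weeks 10 and 12. With the lane as a covariate, miR-93 at week 10 and miR-106b and miR-25 at week 12 were not called (adjusted p = 0.0689, 0.0601 and 0.0667 from edgeR).

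The epithelial miRNAs were compared with these values. The list of 10 epithelial markers (the miR-200 family with miR-141 and miR-429, miR-205, miR-203 and the miR-183 cluster), none of them at 0, summed to 15326 to 30650 CPM in normal glands and to 57009 to 98235 CPM in tumors. At each week 8 of the 10 were differentially expressed with higher levels in tumor, and 1 with a lower level at week 12. Among the normal glands, the sum was 16060, 19850 and 22969 CPM in replicates 1, 2 and 3 of week 6, and 17679, 22433 and 23916 CPM in those of week 8. miR-93 had the same order of libraries at both weeks. At week 12 the sum was 15936, 30650 and 15326 CPM, and miR-93 was again highest in replicate 2 and lowest in replicate 3. There miR-106b and miR-25 went the other way, lowest in replicate 2 (224 and 2549 CPM) and highest in replicate 3 (235 and 3003 CPM). Both had the order of the sum at week 6, and both were highest in replicate 2 at week 8, unlike the sum. At week 10 the sum was 20344, 17368 and 27343 CPM, and here the libraries with the lowest sum and the lowest miR-93 differed. In the tumors of week 8 the sum was 75588, 98235 and 69640 CPM in replicates 1, 2 and 3, lowest in the replicate where miR-93 was highest. In those of week 6 it was 59802, 62300 and 57009 CPM, highest in the same replicate as miR-93 but lowest in another. The tumor sums were 80370, 79736 and 70717 CPM at week 10 and 66717, 78252 and 80663 CPM at week 12. At both of these weeks miR-93 had the order of the sum.

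No miRNA of the lists for other cell types was called higher in tumor at any week, and the lists differed in how many were called lower. The 5 markers of fibroblasts and smooth muscle, among them miR-143, miR-145 and miR-199a, all fell at each week and summed to 158608 to 276050 CPM in normal glands and 70027 to 136934 CPM in tumors. The endothelial miR-126 fell at each week as well, with 20497 to 37461 CPM in normal glands and 6568 to 18252 CPM in tumors. Of the 4 leukocyte miRNAs, miR-223 was at 0 in every library, and the sums were 1681 to 3241 CPM in normal glands and 1198 to 1868 CPM in tumors, with 1 of 3 tested miRNAs called lower at each week. The 3 red blood cell miRNAs summed to 7797 to 34556 CPM and 2060 to 13679 CPM, and the 4 skeletal muscle miRNAs to 89.0 to 89332 CPM and 39.9 to 18078 CPM, none of them at 0 throughout. Of the red blood cell miRNAs 1, 0, 1 and 3 of 3 were called lower at weeks 6, 8, 10 and 12, and of the skeletal muscle miRNAs 0, 1, 0 and 3 of 3 tested, and the sums of these 3 lists overlapped between the genotypes. In normal replicates 1, 2 and 3 of week 6 the skeletal muscle sum was 87491, 29086 and 93.6 CPM. This is the reverse of the order of all 3 members there. At week 10 it was 160, 89.0 and 45430 CPM, highest in the replicate where miR-106b and miR-93 were highest. It was 89332, 2465 and 707 CPM at week 12 and 171 to 341 CPM at week 8. The part that these shifts in tissue makeup have in the levels of the cluster was not tested.

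The balance between the members was compared by ratios of their counts within a library, which do not depend on how libraries are scaled. The log2 ratio of miR-93 to miR-106b was 0.082 higher in tumor (p = 0.290, exact two-sided permutation test with labels exchanged within weeks, 160000 relabellings; adjusted over 6 ratios 0.290). That of miR-25 to miR-106b changed by -0.062 (exact permutation p = 0.247, adjusted 0.290), and that of miR-25 to miR-93 by -0.14 (exact permutation p = 0.193, adjusted 0.290). None of these 3 passed, and the direction did not hold within lanes. In lane 1 they were 0.17, -0.15 and -0.33, and in lane 2 they were -0.044, 0.015 and 0.060. Without normal replicate 3 of every week all 3 passed, with 0.14, -0.11 and -0.25 and adjusted exact permutation p of 0.0392, 0.0392 and 0.0128. Without normal replicate 1 they were -0.014, -0.018 and -0.0037.

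Each member was then set against its twin in the miR-17~92 cluster, where the difference between the 2 paralogous loci was larger than the spread between libraries. The ratio of miR-106b to miR-17 was 1.40 ± 0.25 in normal glands and 0.764 ± 0.075 in tumors (SD, n = 12). Its lowest, median and highest values were 1.10, 1.33 and 1.79 in normal glands and 0.661, 0.748 and 0.880 in tumors. miR-106b was thus counted more often than miR-17 in every normal gland and less often in every tumor.

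miR-93 was counted more often than miR-20a in every library, but the ratio fell from 4.49 ± 0.64 in normal glands, with a range of 3.83 to 5.37, to 2.45 ± 0.24 in tumors, with a range of 2.13 to 2.90. miR-25 was far below miR-92a, at 0.110 ± 0.013 of its count in normal glands (0.0905 to 0.130) and 0.0614 ± 0.0066 in tumors (0.0538 to 0.0763). The mature miR-92a has a gene copy in the miR-17~92 cluster and another in the miR-106a cluster, whose reads cannot be told apart. The tumor-minus-normal differences of these log2 ratios were -0.86, -0.87 and -0.83, each with p = 1.25e-05, the smallest that the exact permutation test over 160000 relabellings can give (adjusted over 6 ratios 2.5e-05).

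Tumor and normal libraries did not overlap for any of these 3 ratios at any of the 4 weeks. The weekly differences ranged from -0.95 to -0.78 for miR-106b with miR-17, from -0.92 to -0.81 for miR-93 with miR-20a and from -0.90 to -0.75 for miR-25 with miR-92a. Within lane 1 the differences were -0.96, -1.01 and -0.78, and within lane 2 they were -0.76, -0.76 and -0.90. With labels exchanged only between same-numbered libraries of a week, the paired form of the test, each had the smallest possible p (0.000488, exact permutation test over 4096 relabellings).

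**Figure D4:**
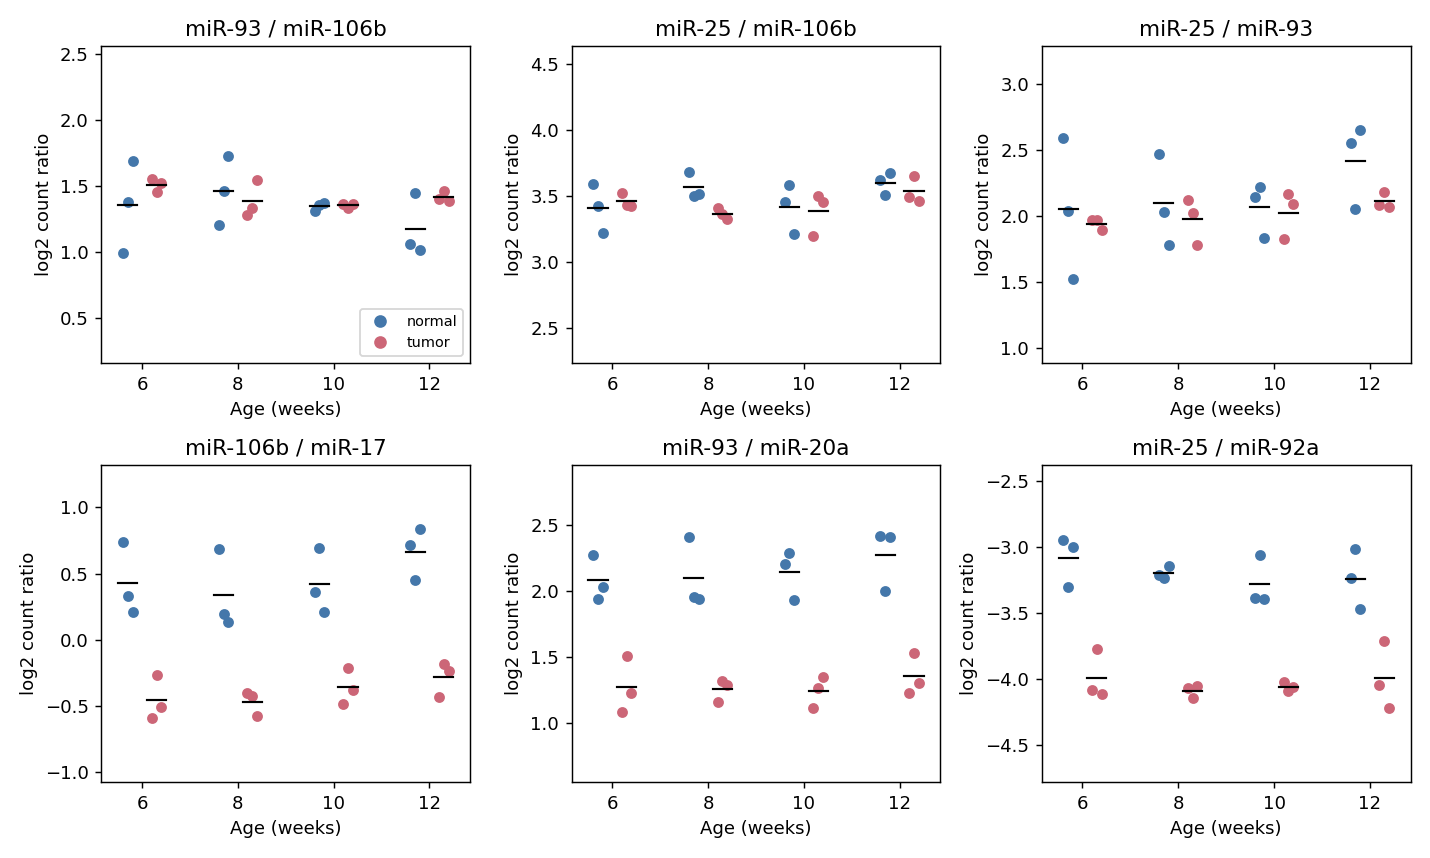
Log2 ratio of counts within each library by age in weeks, for normal glands (blue) and tumors (red), with a black line at the mean of 3 libraries; every panel spans the same number of log2 units. In the upper row the ratios between members overlap between genotypes in most weeks, and in the lower row each member is lower against its miR-17~92 paralog in all tumors than in all normal glands of the same week.

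The weekly fold changes show the same contrast from the side of the paralogs. The log2 fold changes of miR-17 were 1.15, 1.16, 1.23 and 1.54 at weeks 6, 8, 10 and 12, where those of miR-106b were 0.33, 0.41, 0.47 and 0.60. miR-20a had 1.17, 1.06, 1.36 and 1.71, and miR-92a 1.30, 1.11, 1.23 and 1.27. Of the 6 miRNAs of the miR-17~92 cluster, all of them tested, 5, 3, 6 and 5 rose at weeks 6, 8, 10 and 12, with a median log2 fold change of 1.23, 1.14, 1.30 and 1.63. Over all tested miRNAs 29.1%, 21.5%, 32.5% and 29.1% were called higher at those weeks. With upper quartile factors 2, 2, 6 and 5 of the 6 were called, with library sizes only 3, 1, 6 and 5, and with DESeq2 size factors 4, 3, 6 and 5. With the replicate number as a block, 5 of 6 were called at week 8, where miR-18a (2.01, adjusted p = 2.26e-05 from edgeR) and miR-20a (1.19, adjusted p = 0.00212) also passed. Among its remaining miRNAs, miR-18a had 1.61, 1.68, 2.03 and 2.48, and miR-19a had 1.67, 1.41, 1.80 and 1.78. miR-19b, whose log2 fold changes were 0.43, 0.50, 0.69 and 0.77, was the closest in size to the miR-106b~25 members and passed only at week 10 (adjusted p = 0.0112 from edgeR).

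**Figure D5:**
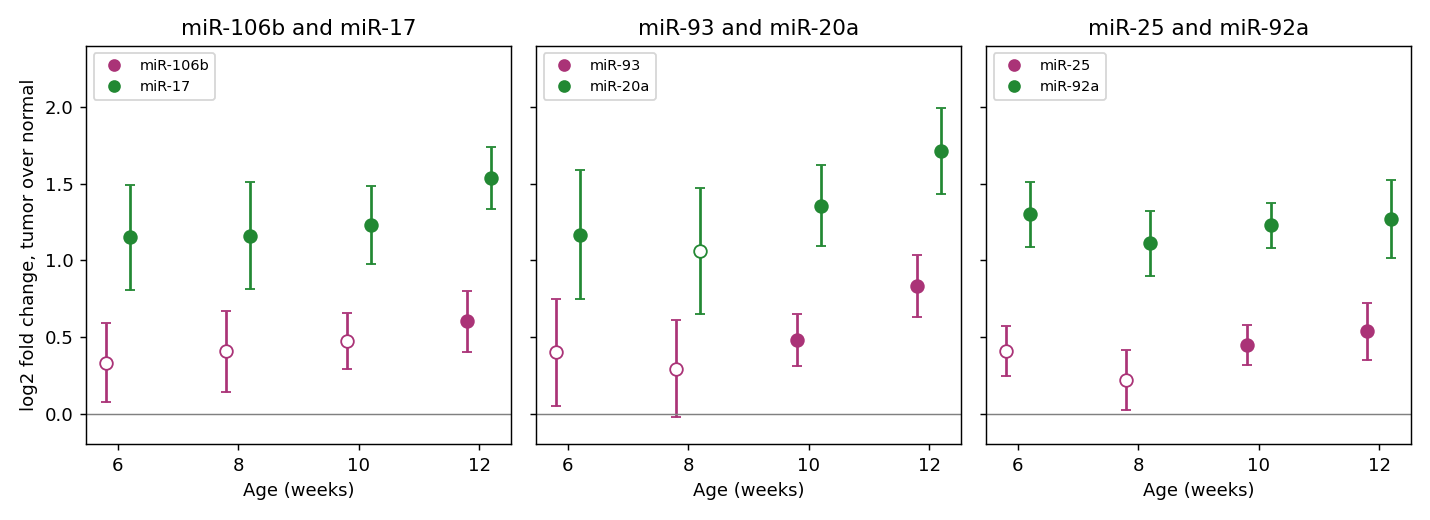
Log2 fold change of tumor over normal (3 libraries per genotype) at each week for each member and its paralog, ± a standard error derived from the F statistic. Circles are filled where edgeR's quasi-likelihood test gave an adjusted p under 0.05. The members lie between 0.22 and 0.83 and the paralogs between 1.06 and 1.71 at every week.

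In the other relatives with the seed of miR-25, the changes ran apart. miR-92b, whose gene stands alone, had log2 fold changes of 3.55, 3.41, 3.28 and 3.23 and passed at every week (highest adjusted p = 0.00189 from edgeR). Its level was 118 ± 55.6 CPM in normal glands of week 12 and 1106 ± 87.4 CPM in tumors. miR-32 was low, with group means of 7.40 to 12.7 CPM, and its log2 fold changes of -0.19, -0.71, -0.037 and -0.44 did not pass at any week (lowest adjusted p = 0.176 from edgeR).

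miR-106a, miR-18b, miR-20b and miR-363 of the miR-106a cluster were listed at 0 in every library, as was miR-367. The first 4 are on the X chromosome, and all 60 listed miRNAs that RefSeq places only on that chromosome were at 0 in every library, so that no level can be read for this paralog.

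Seen over a whole seed family, the cluster supplied a smaller share of the counts in tumors. miR-106b and miR-93 together made up 73.1 ± 2.39% of the counts of the miRNAs with the seed AAAGUGC in normal glands, from 69.9% to 76.3%, and 60.4 ± 2.05% in tumors, from 57.6% to 64.3% (SD, n = 12). The rest came from miR-17 and miR-20a. miR-25 made up 9.83 ± 1.04% of the counts of the miRNAs with the seed AUUGCAC in normal glands (8.26% to 11.4%) and 5.70 ± 0.57% in tumors (5.03% to 6.97%), and nearly all of the rest was miR-92a. The ranges of the genotypes did not overlap for either seed. Both shares are over the miRNAs with counts only. miR-106a and miR-20b of the first seed and miR-363 and miR-367 of the second were at 0 in every library. These shares restate the count ratios above at the level of the seed, and no separate test was made.

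The miRNAs whose pattern over the 8 group means was most like that of the cluster, by Pearson correlation of log2 CPM with the mean of the 3 members, were miR-20a (0.986), miR-19b (0.986), miR-17 (0.984), miR-18a (0.968) and miR-187 (0.967), of 234 miRNAs compared. Of these 5, 4 are members of the miR-17~92 cluster, whose other members miR-19a and miR-92a were in ranks 8 and 15. The 8 points share the contrast of tumor and normal, and a high value needs no more than a rise of any size in tumors. For the deviations of the 24 libraries from their group means, which leave that contrast out, the correlations were 0.904 for miR-17 (rank 1), 0.897 for miR-20a (rank 3), 0.890 for miR-18a (rank 4) and 0.795 for miR-187 (rank 8). The rest of the miR-17~92 cluster was less close, with 0.720 for miR-19a (rank 14), 0.617 for miR-92a (rank 28) and 0.550 for miR-19b (rank 38). Of the other relatives with the seed of miR-25, miR-32 had 0.672 (rank 20) and miR-92b -0.219 (rank 182). miR-181c, named after its value was seen, had 0.899 (rank 2), and miR-183, an epithelial marker, 0.849 (rank 5). All these values share the scaling and the tissue makeup of each library and are given as a description.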

How the data were processed

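The authors trimmed adaptor and barcode, aligned reads of mature miRNA length with Bowtie, counted those that overlap a miRBase miRNA over most of its length, and deposited the raw counts per miRNA. The paper names mm10 and the submitters' notes mm9. Positions here are from the mm9 annotation. Groups, weeks, replicate numbers and lanes come from the labels.

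Of 510 miRNAs, 364 had a count and 237 passed filterByExpr over the 8 groups. Each week was tested with edgeR 4.0.16 (R 4.3.3; TMM from all 24 libraries, quasi-likelihood, Benjamini-Hochberg over 237). For ratios, 0.5 was added to each count and exact permutation tests within weeks were run in Python 3.11.15 with numpy 2.4.6. Relatives, markers and the 5 most similar miRNAs followed stated rules; the members, defined by locus, and the lists were chosen with earlier results of these data known. Scripts were tested on simulated data. 

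Deviations from group means of same-numbered tumor and normal libraries correlated by 0.196 to 0.510 (week 6), 0.341 to 0.526 (week 8), 0.489 to 0.816 (week 10) and 0.0312 to 0.424 (week 12). The numbers, which the labels do not explain, were thus taken as possible pairing at weeks 6, 8 and 10. The main weekly tests left them out, and the replicate block was run only as an alternative. Alternatives were other scalings, filters, edgeR's classic exact test, the Wald test of DESeq2 1.42.0, a single fit, TMM within the week, replicate block, lane, 2 added to each count, and each replicate left out. Depth and floors cover counting error only, since amplified reads cannot be counted as separate molecules.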

Additional observations from a re-analysis of the deposited data

How the results depend on the processing

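The log2 fold change of each member stayed above 0 at every week under all 11 alternatives and with any replicate left out, and the 3 ratios of a member to its paralog kept direction and call throughout. The calls of single members at weeks 10 and 12 depended on the setting, and only miR-93 at week 12 passed in 11 of 11 alternatives (0.76 to 0.94, highest adjusted p = 0.0431). DESeq2's test kept that call alone. The cause of these changes was not tested. At week 6, miR-25 was called with at least 10 counts in every library (0.49) and in a single fit of all libraries (0.41). At week 10, miR-93 was not called in the single fit (0.48), with DESeq2 size factors (0.46), library sizes only (0.45) or lane as a covariate (0.48), and neither miR-25 nor miR-93 was with upper quartile factors (0.27 and 0.32), no filter (0.30 and 0.34), DESeq2's test (0.42 and 0.46) or edgeR's classic exact test (0.45 and 0.48). At week 12, miR-106b and miR-25 were not called with no filter (0.53 and 0.47), DESeq2's test (0.54 and 0.47), the classic exact test (0.60 and 0.54), DESeq2 size factors (0.54 and 0.47) or lane as a covariate (0.59 and 0.53), nor miR-25 with TMM within the week (0.52).

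With the replicate number as a block, miR-93 at week 10 (0.49, adjusted p = 0.0515 from edgeR) and, at week 12, miR-106b (0.59, adjusted p = 0.0887) and miR-25 (0.53, adjusted p = 0.115) were not called. The numbers were not taken as pairing at week 12, where 2 of 6 libraries correlated best with their own number, against 5, 6 and 4 of 6 at weeks 6, 8 and 10. The block changed no other call of a member. At week 8 it added calls of miR-18a and miR-20a, and at week 12 of miR-19b (0.83, adjusted p = 0.0407).

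With 1 replicate left out, log2 fold changes ranged for miR-25 from 0.15 to 0.51 (week 6), 0.30 to 0.46 (week 10) and 0.29 to 0.58 (week 12). For miR-93 they ranged from 0.084 to 0.82, 0.37 to 0.56 and 0.62 to 0.87 at those weeks, and for miR-106b from 0.060 to 0.54, 0.38 to 0.54 and 0.40 to 0.63. At week 8 the ranges were 0.25 to 0.44 for miR-106b, 0.043 to 0.48 for miR-93 and 0.091 to 0.23 for miR-25, with no call. The log2 ratio differences ranged from -0.014 to 0.14 for miR-93 with miR-106b, -0.11 to -0.018 for miR-25 with miR-106b and -0.25 to -0.0037 for miR-25 with miR-93. In lane 2 alone they were -0.044, 0.015 and 0.060.

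None of the changes from week 6 to week 12 passed, and several turned sign. In tumors, miR-25 had -0.045 with at least 10 counts in every library and -0.0039 with upper quartile factors. miR-106b had 0.0013 with no filter, 0.13 with DESeq2's test and 0.13 with its size factors, and miR-93 0.041 with both. In normal glands miR-25 had 0.014 with the test and 0.015 with the size factors. With 1 replicate left out, miR-106b ranged from -0.071 to 0.064 in tumors, and in normal glands miR-106b from -0.31 to 0.077, miR-25 from -0.077 to 0.31 and miR-93 from -0.64 to 0.096.

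With 3 libraries per group, the calls at weeks 10 and 12 lie close to the threshold, and the lowest count of a member in a library was 311. Sequences shared with paralogs, arms that are not separated and the makeup of whole tissue bear on the levels.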
